A study of Hordeum vulgare with 12 samples.

Results

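The genes described here are 102 of 29014 barley genes whose mean level was higher in mutant than in wild-type (WT) inflorescences at both stages sampled. They were chosen from the authors' group means by a difference of at least 1 on the log2(FPKM + 1) scale at W2.0 and again at W3.5, where FPKM is a read number corrected for the gene's length and the library's depth. Genes under 0.5 FPKM in both WT means and at 2 FPKM or more in both mutant means were left out, which removed 48 of the 150 genes that met both differences. The genotype differences below therefore describe how the genes were chosen and carry no test.

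Inflorescences came from Golden Promise, a cultivar of barley (Hordeum vulgare) that is easily transformed, and were compared by RNA-seq. All 4 groups shared this cultivar, the tissue and normal growth conditions, and held mutant plants at W2.0, mutant plants at W3.5, WT plants at W2.0 and WT plants at W3.5, with 3 libraries each. RNA of a library came from a pool of 15 to 20 spikes. The sources used here do not name the mutated gene, the number of mutant lines or their origin. The design text names W2.0 and W3.0, and the stages of the sample labels were followed.

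In grasses, the size of the inflorescence meristem is held in check by signalling between secreted peptides, their receptors and transcription factors that set the number of stem cells. In maize, FASCIATED EAR genes act in this control, and their mutants have enlarged, flattened meristems. Stage names of this form are used for the Waddington scale of barley spike development, on which W2.0 is the double ridge and W3.5 falls in the formation of floral organs. Genes are given by identifier, and chromosomes are read from the identifier, since none of the 58438 RefSeq barley genes at hand matched an identifier of the table. The roles of the 102 genes, the level of the mutated gene and the markers of inflorescence tissue could therefore not be looked up. A share of reads from near-identical copies cannot be assessed either. In whole inflorescences, more cells of a type and more RNA per cell cannot be told apart.

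The 12 libraries held between 63298092 and 75896357 reads. Their values were recovered from the means, as described in the processing, for genes whose highest mean lay between 0.5 and 16 FPKM, and libraries are named A, B and C by falling depth within a group. Mutant W2.0 library A stood closer to the mutant W3.5 libraries (mean Pearson r of 0.828 over 4884 genes) than to libraries B and C of its own group (mean r of 0.764). Within groups, libraries had a mean r of 0.773 for mutant W2.0 and of 0.835 to 0.886 elsewhere. Below, for genes with library values, most counts, measures of spread and stage tests in the mutant that rest on the mutant W2.0 libraries are followed by their values without library A. Counts taken from the group means include library A, which cannot be taken out of genes with means only.

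The 102 genes covered a wide range of levels, and their WT levels were mostly low. Their median mean was 2.74 FPKM in WT at W2.0 and 1.88 FPKM in WT at W3.5, against 10.5 and 7.32 FPKM in the mutant. Over the 19367 genes at 1 FPKM or more in a group, the 4 medians lay between 10.4 and 10.9 FPKM. The medians of the 102 genes were thus at or below those of all expressed genes in the mutant and well under them in WT, although 29 of the 102 were at 16 FPKM or more in both mutant means. In their highest mean, 21 genes were under 4 FPKM, 40 lay between 4 and 16 FPKM and 41 were at 16 FPKM or more. WT levels differed among them, since 58 were at 1 FPKM or more in both WT means, 15 were under 0.5 FPKM in both and 2 of these were listed at 0 in both. These 2 were HORVU1Hr1G008830, with mutant means of 2.32 and 1.56 FPKM, and HORVU1Hr1G043470, with 1.59 and 1.25 FPKM at W2.0 and W3.5. WT expression thus ranged from none detected to levels far above the median.

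The genotype difference ranged from just above the limit to more than 4 on the log2 scale. At W2.0 its median was 1.49 (quartiles 1.24 and 2.00), and the largest was 4.48. At W3.5 the median was 1.44 (quartiles 1.22 and 1.85), and the largest was 4.2. Over all 19367 genes the medians were 0.02 and -0.04. A difference of at least 1 at both stages was found for 0.775% of these genes, which is the share the choice of genes fixed. As plain ratios of the means, the median was 4.44 at W2.0 over the 100 genes with a WT mean above 0 and 4.23 at W3.5 over 95 such genes. The difference was larger at W2.0 for 60 genes and larger at W3.5 for 42, and 9 genes reached 2 at both stages.

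**Figure D1:**
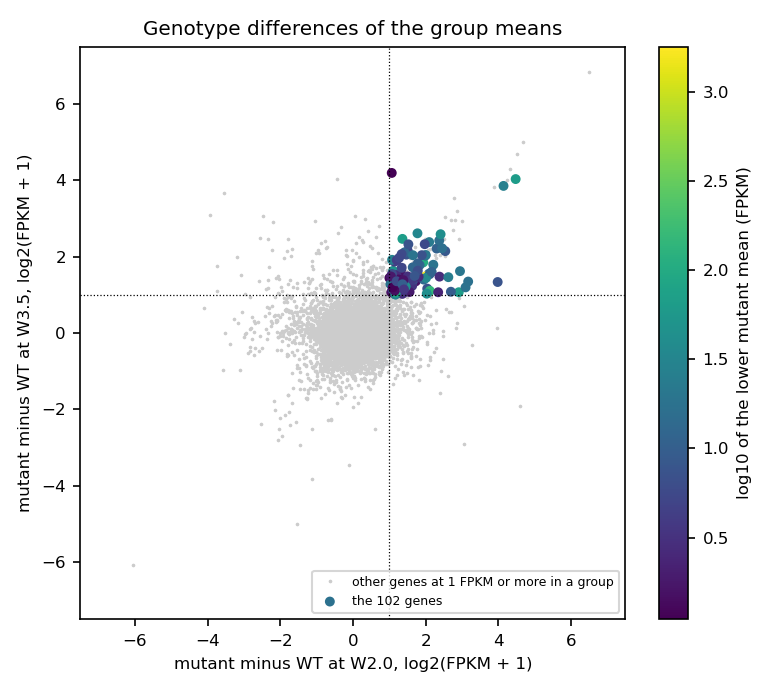
Difference of the authors' group means, mutant minus WT on the log2(FPKM + 1) scale, at W2.0 (horizontal) and W3.5 (vertical). Coloured points are the 102 genes, coloured by the log10 of their lower mutant mean in FPKM, and grey points are the other genes at 1 FPKM or more in a group. Most of the 102 lie close to the dotted limits of 1, and 2 genes lie near 4 on both axes.

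HORVU3Hr1G015730 on chromosome 3H and HORVU2Hr1G075090 on 2H stood apart from the rest. HORVU3Hr1G015730 had WT means of 1.89 and 2.98 FPKM and mutant means of 63.5 and 64.3 FPKM at W2.0 and W3.5. HORVU2Hr1G075090 had WT means of 0.713 and 0.918 FPKM and mutant means of 29.3 and 26.8 FPKM. Their smaller differences were 4.04 and 3.86, while the next of the 102, HORVU7Hr1G013250, had 2.41. In each of the 2 genes the mutant level hardly moved between stages and WT transcript was present at a low level. HORVU7Hr1G013250 on 7H followed with WT means of 7.03 and 9.97 FPKM and mutant means of 41.8 and 65.1 FPKM. HORVU6Hr1G086440 on 6H stood at 3.10 and 2.14 FPKM in WT and 20.3 and 15.9 FPKM in the mutant. Both kept a ratio of about the same size at the 2 stages.

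The other genes with the largest smaller difference were HORVU6Hr1G000830, HORVU1Hr1G078880, HORVU3Hr1G000700, HORVU0Hr1G014750, HORVU6Hr1G000680 and HORVU5Hr1G119480, at 1.99 to 2.22. HORVU3Hr1G000700 went from WT means of 0.587 and 1.62 FPKM to 8.25 and 10.6 FPKM in the mutant, a ratio of 14.1 at W2.0 and 6.55 at W3.5. HORVU1Hr1G078880 had 1.41 and 2.20 FPKM in WT and 10.9 and 13.9 FPKM in the mutant. HORVU5Hr1G119480 had 1.12 and 2.23 FPKM in WT and 7.43 and 12.2 FPKM in the mutant. In these 3 genes the WT and the mutant means were both higher at W3.5 than at W2.0.

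Abundance reached far beyond the median in a few genes. HORVU1Hr1G004150 on 1H was the most abundant, with WT means of 562 FPKM (W2.0) and 641 FPKM (W3.5) and mutant means of 2234 and 1793 FPKM. HORVU4Hr1G010610 on 4H had WT means of 31.8 and 100.5 FPKM and mutant means of 141 and 218 FPKM. HORVU1Hr1G011990 on 1H stood at 38.3 and 28.2 FPKM in WT and at 149 and 105 FPKM in the mutant. These genes had substantial WT levels, and their mutant means were higher by ratios of 2.17 to 4.45. HORVU4Hr1G069990 had the smallest genotype difference of the 8 genes with the highest lower mutant mean, with 50.7 and 41.3 FPKM in WT and 116 and 87.3 FPKM in the mutant. HORVU7Hr1G009260 had 27.3 and 11.1 FPKM in WT and 71.7 and 65.8 FPKM in the mutant. HORVU3Hr1G034230 had 22.9 and 16.9 FPKM in WT and 50.5 and 54.4 FPKM in the mutant. In the last 2 genes the WT mean was lower at W3.5, while the mutant mean stayed near its W2.0 value.

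At the limit of 1, the 3 genes just inside were HORVU4Hr1G021960, HORVU1Hr1G088190 and HORVU2Hr1G109190, with smaller differences of 1.00, 1.00 and 1.02. HORVU4Hr1G021960 had 13.8 FPKM in both WT means and 32.2 and 28.6 FPKM in the mutant. Just outside were HORVU2Hr1G097380, HORVU7Hr1G075760 and HORVU4Hr1G010770, each at 1.00 when rounded and under the limit. HORVU2Hr1G097380 had 10.7 and 24.9 FPKM in WT and 30.4 and 50.7 FPKM in the mutant. Genes on either side of the limit were thus alike in the values that chose them.

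Values of single libraries could be recovered for 26 of the 102 genes. Of the other 76, 41 lay above the 16 FPKM limit of the search and 35 had no single solution. The 26 genes had highest means between 1.29 and 9.63 FPKM, so the abundant genes named above are described by means alone. All 26 passed the filter of 1 FPKM in at least 3 libraries, which a gene could do through its mutant libraries. The search recovers uneven genes less often than even ones.

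Several of these genes were near 0 in WT and present in every mutant library. HORVU5Hr1G017930 on 5H held 5, 0 and 5 reads in WT W2.0 libraries A, B and C and 2, 0 and 0 reads in WT W3.5. Its mutant libraries held 336, 322 and 230 reads at W2.0 and 289, 356 and 324 reads at W3.5. These reads correspond to 1.44 ± 0.188 FPKM at W2.0 and 1.65 ± 0.220 FPKM at W3.5 (SD, n = 3). The mutant libraries lay far above every WT library and close to each other. HORVU7Hr1G006630 on 7H held 0, 1 and 0 reads in WT W2.0 and no read in WT W3.5, and 197, 261 and 184 reads in mutant W2.0 and 330, 169 and 200 reads in mutant W3.5. HORVU3Hr1G015530 on 3H held 0, 8 and 0 reads in WT W2.0 and none in WT W3.5, against 60, 76 and 66 reads in mutant W2.0 and 104, 50 and 71 in mutant W3.5. Although the mutant means of these 3 genes were too low to meet the limit for genes that are off in WT and on in the mutant, transcript was almost absent in WT.

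Other genes had more WT transcript. HORVU7Hr1G020180 on 7H stood at 0.858, 1.59 and 2.85 FPKM in WT W2.0 and 1.39, 3.55 and 3.35 FPKM in WT W3.5. Its mutant libraries stood at 8.44, 9.11 and 6.38 FPKM at W2.0 and 10.3, 7.88 and 10.7 FPKM at W3.5. HORVU2Hr1G013820 on 2H stood at 0.797, 0.668 and 1.2 FPKM in WT W2.0, 1.42, 0.733 and 0.960 FPKM in WT W3.5, 5.10, 5.04 and 3.25 FPKM in mutant W2.0 and 5.12, 4.0 and 4.19 FPKM in mutant W3.5. The mutant libraries of both genes lay above all WT libraries of the same stage. HORVU3Hr1G085340 on 3H stood at 0.667, 1.12 and 1.33 FPKM in WT W2.0, 1.74, 0.938 and 2.30 FPKM in WT W3.5, 6.13, 6.58 and 3.82 FPKM in mutant W2.0 and 5.19, 6.89 and 6.0 FPKM in mutant W3.5. HORVU1Hr1G045010 on 1H had WT values of 0.411 ± 0.122 FPKM (W2.0) and 0.698 ± 0.163 FPKM (W3.5) and mutant values of 3.08 ± 0.205 and 3.24 ± 1.18 FPKM (SD, n = 3). HORVU1Hr1G023820, HORVU6Hr1G011520 and HORVU2Hr1G109190 also had no overlap between genotypes at either stage.

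**Figure D2:**
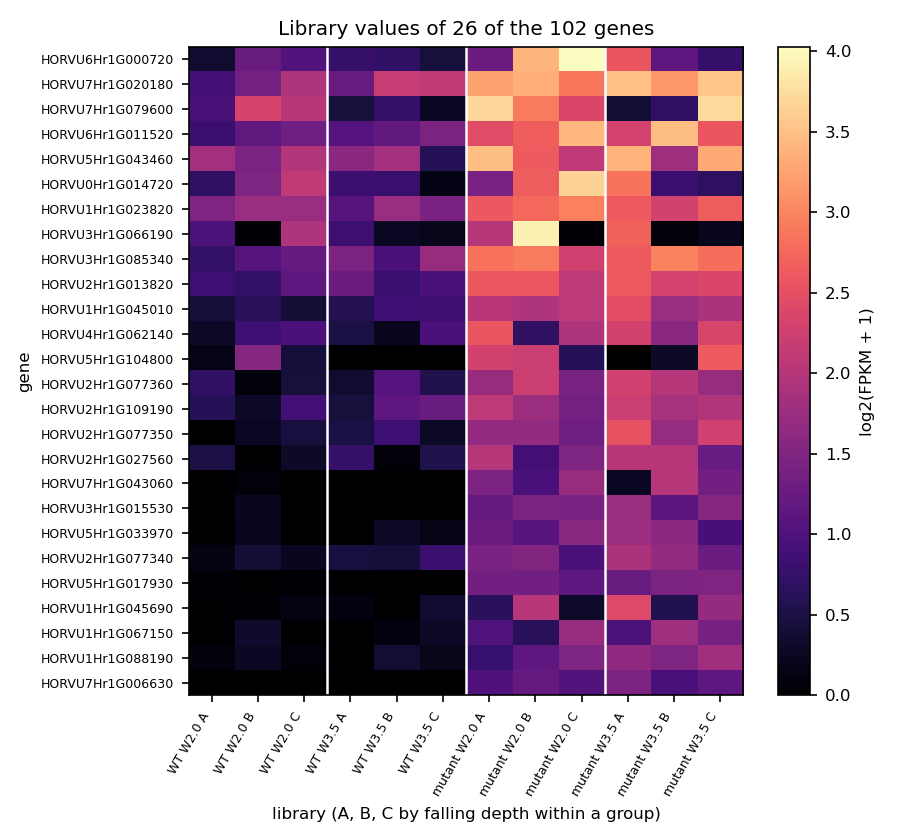
Level of 26 of the 102 genes in each of the 12 libraries, as log2(FPKM + 1), with genes ordered by their mean in the mutant at W2.0. White lines part the 4 groups, and the mutant libraries on the right are brighter for most genes, with dark cells in mutant libraries of HORVU3Hr1G066190, HORVU5Hr1G104800 and HORVU7Hr1G079600.

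In 7 of the 26 genes, the libraries of a mutant group were uneven, with a coefficient of variation over 80%. The accuracy of the recovered reads was not checked for genes this uneven, and the values below carry that limit. HORVU3Hr1G066190 on 3H held 204, 946 and 2 reads in mutant W2.0 libraries A, B and C and 357, 3 and 10 reads in mutant W3.5, against 66, 2 and 169 reads in WT W2.0 and 48, 13 and 9 reads in WT W3.5. Its mutant and WT libraries overlapped at both stages. HORVU7Hr1G079600 on 7H stood at 12, 6.53 and 4.15 FPKM in mutant W2.0 and 0.310, 0.630 and 12.2 FPKM in mutant W3.5, with 0.942, 4.05 and 3.13 FPKM in WT W2.0 and 0.372, 0.701 and 0.208 FPKM in WT W3.5. By these recovered values, its mean difference at W3.5 came from library C alone. HORVU6Hr1G000720 on 6H stood at 1.44, 9.58 and 15.3 FPKM in mutant W2.0, 4.96, 1.23 and 0.694 FPKM in mutant W3.5, 0.280, 1.42 and 1.07 FPKM in WT W2.0 and 0.704, 0.634 and 0.369 FPKM in WT W3.5. HORVU5Hr1G104800 on 5H held 0, 9 and 187 reads in mutant W3.5 and no read in WT W3.5, and 168, 157 and 20 reads in mutant W2.0 against 5, 80 and 13 in WT W2.0. The remaining 3 were HORVU0Hr1G014720, HORVU1Hr1G045690 and HORVU7Hr1G043060. In HORVU1Hr1G045690 and HORVU7Hr1G043060 the mutant libraries still lay above every WT library of the same stage.

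**Figure D3:**
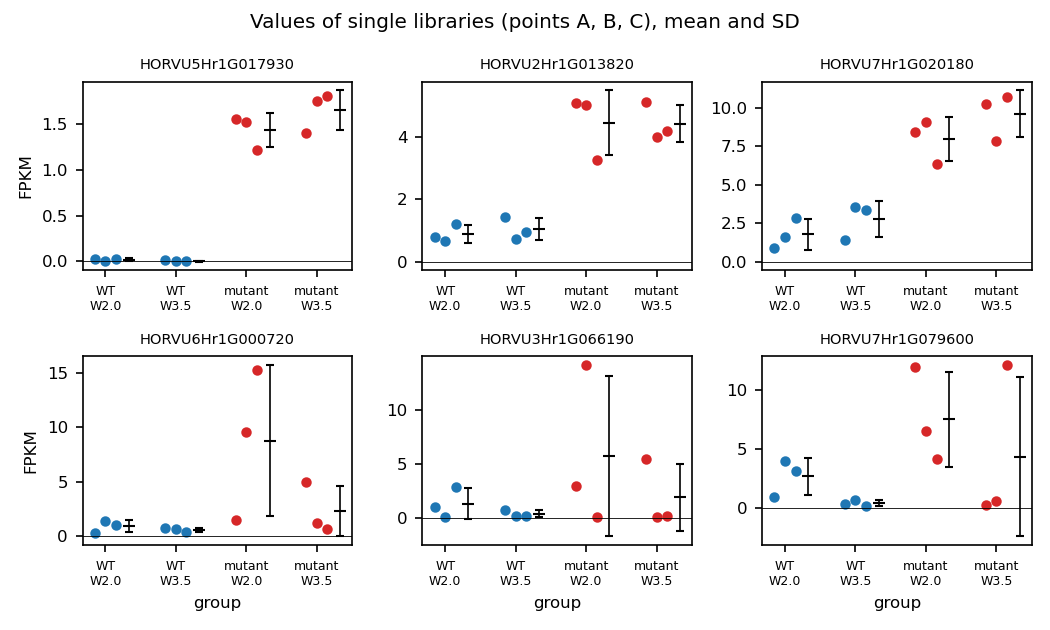
FPKM of single libraries (points, A to C from left to right) with the mean and SD (bars, n = 3) for 6 of the 26 genes, chosen after their values were seen to show even and uneven genes. The upper genes separate the genotypes at both stages, while in each of the lower genes 1 or 2 libraries carry the mean of a mutant group.

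The spread of the 26 genes between libraries was set beside that of tested genes with a like highest mean, which in WT had far more reads. The median coefficient of variation was 35.6% for mutant W3.5 and 40.5% for mutant W2.0, against 22.6% and 27.4% for the 4166 tested genes in the same range of highest mean. Without library A it was 35.1% for mutant W2.0, against 20.1%. In WT, where the 26 genes had few reads, it was 61.6% at W3.5 and 72.4% at W2.0, against 20.5% and 21.5%. A coefficient over 80% was found in WT W2.0 for 12 of the 26 genes and in WT W3.5 for 6, against 5.64% and 5.43% of the 4166. In a mutant group it was found for 7 of 26 (26.9%), against 9.51%, and without mutant W2.0 library A for 9 of 26, against 9.77%. The median SD on the log2(FPKM + 1) scale, which shrinks near 0, was 0.41 for mutant W3.5, 0.37 for mutant W2.0, 0.23 for WT W3.5 and 0.24 for WT W2.0, against 0.22, 0.27, 0.20 and 0.21. Without library A it was 0.38 for mutant W2.0, against 0.20. The median number of reads behind a value was 121.5 in a mutant library and 13 in a WT library for the 26 genes, and 186 and 184 for the 4166. The rule used the mutant means, which a single high library can lift over the limit, so the choice of genes bears on the mutant spread. The parts of this choice and of counting error in these differences were not tested. Among mutant W3.5 libraries, A was the highest for 14 of the 26 genes, against 32.4% of the tested genes, and in WT W2.0 library A was the highest for 2 of 26, against 35.2%.

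The library values give the stability of the rule itself. Mutant libraries lay above all WT libraries of the same stage in 22 of the 26 genes at W2.0 and 20 at W3.5, against 8.29% and 7.15% of the 4884 tested genes, and in 19 at both stages, against 1.9%. Without mutant W2.0 library A these counts were 23 at W2.0 and 19 at both stages. The shares of all tested genes without library A were not computed, and with fewer libraries any gene avoids overlap more easily. The same contrast chose the genes, so these shares show nothing further. With each library left out in turn, between 19 and 25 of the 26 genes still met both differences, and 11 met them whichever library was left out. The fewest, 19, remained without mutant W2.0 library A and the next fewest, 21, without mutant W3.5 library A. The 15 genes that were lost without at least 1 library included the 7 uneven genes and genes near the limit such as HORVU1Hr1G088190.

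The recovered genes were short. Their median length was 570 bases, from 174 in HORVU4Hr1G062140 to 2836 in HORVU5Hr1G017930, against 1098 bases for the tested genes of the same range. A length under 600 bases was found for 16 of the 26 genes and for 19.3% of the 4166. Length is known only where reads were recovered, and the other 76 genes have none here.

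How the genes differed between stages was not used by the rule, although the comparison is built from the same 4 columns. By the means, 21 of the 102 genes (20.6%) were lower by at least 1 at W3.5 than at W2.0 in the mutant, against 2.46% of the 19367 genes. In WT 17 genes (16.7%) were lower by at least 1, against 4.07%. The comparisons share no sample, and 9 genes (8.82%) were lower by at least 1 in both genotypes, against 0.857%. Upward differences of this size were found for 1 gene in the mutant (0.980%, against 0.733%), 1 in WT (0.980%, against 1.08%) and 0 in both (against 0.17%). The median stage difference was -0.35 in the mutant and -0.22 in WT, against -0.02 and 0.06 over all 19367 genes. Of the 21 genes lower in the mutant, 13 were at 16 FPKM or more in their highest mean, 8 lay between 4 and 16 FPKM and 0 were lower than that. The rule holds every mutant mean at 1 FPKM or more, so genes under 4 FPKM could hardly show a difference of this size. For genes without library values these are differences of means with no replicate check. A single high library can lift a mutant mean over the limit of the rule and also shift a stage difference. The part of this in the shares above was not tested, so the shares are a description only. Of the 21, the 3 with library values were HORVU0Hr1G014720, HORVU3Hr1G066190 and HORVU6Hr1G000720, all among the 7 uneven genes. Their coefficients of variation in mutant W3.5 were 126%, 163% and 101%. Of the 17 in WT, only HORVU7Hr1G079600 had library values. It was also among the uneven genes, with WT coefficients of 59% at W2.0 and 58.8% at W3.5.

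The stage difference had the same sign in both genotypes for 78 of the 102 genes. It was downward in both for 53, upward in both for 25, downward in the mutant and upward in WT for 14 and the reverse for 8. HORVU1Hr1G008830 and HORVU1Hr1G043470, the other 2, were lower at W3.5 in the mutant and listed at 0 in both WT means. The stage differences of the genotypes are built from the means that the rule used, and nothing further is read from their likeness or from the 9 genes lower by at least 1 in both.

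**Figure D4:**
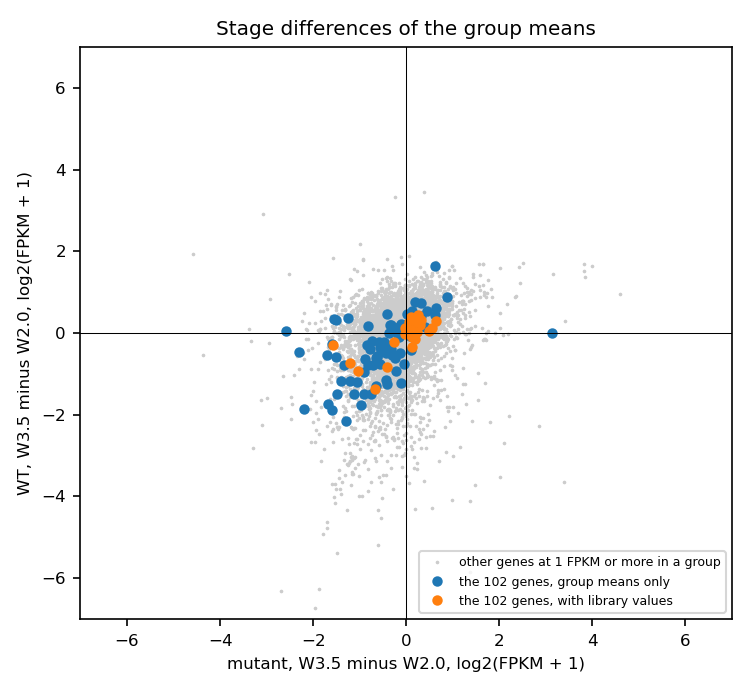
Stage difference of the authors' group means, W3.5 minus W2.0 on the log2(FPKM + 1) scale, in the mutant (horizontal) and in WT (vertical). Blue points are members of the 102 genes with means only, orange points those with library values, and grey points other genes at 1 FPKM or more in a group. The coloured points lie mostly in the lower left, where 53 genes are lower at W3.5 in both genotypes.

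In the mutant, the largest downward differences were those of HORVU7Hr1G100130, HORVU0Hr1G007480 and HORVU5Hr1G112060, at -2.59, -2.31 and -2.20. HORVU7Hr1G100130 had mutant means of 50.3 FPKM at W2.0 and 7.55 FPKM at W3.5 and WT means of 2.24 and 2.38 FPKM. HORVU0Hr1G007480, whose identifier places it on no chromosome, had mutant means of 318 and 63.5 FPKM and WT means of 41.3 and 29.7 FPKM. HORVU5Hr1G112060 was lower at W3.5 in both genotypes, with 16.2 and 2.74 FPKM in the mutant and 3.91 and 0.345 FPKM in WT. The first of these had its stage difference in the mutant means only, and the last had it in both.

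In WT, HORVU6Hr1G039840, HORVU0Hr1G014750 and HORVU5Hr1G112060 had the largest downward differences, at -2.14, -1.89 and -1.87. HORVU6Hr1G039840 had WT means of 24.2 and 4.70 FPKM and mutant means of 85.3 and 33.9 FPKM. HORVU0Hr1G014750 had WT means of 15.8 and 3.56 FPKM and mutant means of 71.2 and 22.8 FPKM. For both, the mutant mean at W3.5 was above the WT mean at W2.0.

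Upward, HORVU2Hr1G108760 on 2H had mutant means of 1.10 FPKM (W2.0) and 17.4 FPKM (W3.5), a difference of 3.13, with WT means of 0.00224 and 0 FPKM. HORVU5Hr1G125780 had mutant means of 7.87 and 15.3 FPKM and WT means of 2.77 and 5.94 FPKM, stage differences of 0.88 in each genotype. HORVU4Hr1G010610, given above among the abundant genes, had the largest upward difference in WT, at 1.63, and HORVU4Hr1G076610 followed HORVU5Hr1G125780 with 0.76. HORVU2Hr1G108760 was under the 0.5 FPKM limit in WT, and it was kept because its mutant mean at W2.0 was under 2 FPKM.

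For the 26 genes with library values the stage difference could be tested, with limma on log2(FPKM + 1) over all 12 libraries and Benjamini-Hochberg adjustment over 4884 genes. In the mutant, 0 of the 26 passed an adjusted p of 0.05, where 1 of the 4884 genes (0.0205%) did, and 3 of the 26 had an unadjusted p under 0.05, against 9.23% of all genes tested. In WT, 0 of the 26 passed, where 59 genes (1.21%) did, and 0 had an unadjusted p under 0.05, against 16.5%. The WT counts were largely fixed by the choice of genes, since 13 of the 26 were under 1 FPKM in every WT library and 5 would have passed the filter through WT libraries alone. Nothing is read from them. With limma-voom on the reads, 0 of the 26 were called in the mutant, where 0 of all 4884 genes were, and 0 in WT, where 25 were. Of the 26, 1 had an unadjusted p under 0.05 in the mutant and 0 in WT, against 8.74% and 15.9% of the 4884. With at most 1 mutant call among the 4884 genes tested under either tool, the mutant counts of 0 say little about the 26 genes. Only 3 of the 21 genes with mutant means lower by at least 1 and 1 of the 17 with such WT means were among the 26, so most of the pattern in the means was not open to this test. The 26 genes also leaned the other way from the whole group: by the means, 17 were higher and 9 lower at W3.5 in the mutant, while 69 of the 102 were lower, and in WT 14 were higher and 12 lower. Standard errors of the 26 genes ran from 0.19 to 0.86 on the log2 scale, with a median of 0.27. Without mutant W2.0 library A they ran from 0.21 to 1.00 in the mutant, with a median of 0.31.

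HORVU2Hr1G077350, with 2.24, 2.19 and 1.53 FPKM in mutant W2.0 and 4.79, 2.28 and 3.83 FPKM in mutant W3.5, had a stage difference of 0.60 ± 0.24 (SE). Its limma adjusted p was 0.474, the smallest of the 26 genes, and it did not pass. HORVU6Hr1G000720 had -1.41 ± 0.59 (SE; limma adjusted p = 0.487) and HORVU1Hr1G088190 had 0.50 ± 0.22 (SE; limma adjusted p = 0.513). With library A of mutant W2.0 left out, the smallest limma adjusted p of the 26 genes in the mutant was 0.0735, 0 of 26 passed, where 9 of the 4884 genes did, and 3 had an unadjusted p under 0.05, against 14.5%. In WT the smallest limma adjusted p was 0.36, for HORVU7Hr1G079600 with a difference of -1.28 ± 0.69 (SE). Since libraries are pools of spikes, these p-values measure the spread between pools.

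The 102 genes were spread over all chromosomes. There were 14 on 1H, 15 on 2H, 14 on 3H, 10 on 4H, 12 on 5H, 15 on 6H and 17 on 7H, with 5 not placed. Per 1000 genes at 1 FPKM or more, this ran from 3.96 on 5H to 6.94 on 6H.

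Some of the genes were neighbours in identifier order. With at most 5 listed genes between them, 22 of the 102 formed 9 runs, the longest of 4 genes. The same count for other genes was not computed, so nothing is read from the number of runs. On 6H, HORVU6Hr1G000680, HORVU6Hr1G000720, HORVU6Hr1G000810 and HORVU6Hr1G000830 lay together with at most 1 listed gene between neighbours. Their WT means at W2.0 were 17.1, 0.921, 3.51 and 7.26 FPKM, and their mutant means at W2.0 were 71.8, 8.78, 15.8 and 44.3 FPKM. At W3.5 their WT means were 4.47, 0.569, 0.963 and 2.65 FPKM, and their mutant means 21.6, 2.29, 7.08 and 16 FPKM. All 4 had lower means at W3.5 in both genotypes and stood higher in the mutant at each stage. Within the same stretch, HORVU6Hr1G000780 and HORVU6Hr1G000960 missed the limit at W3.5 only, with differences of 1.18 and 2.15 at W2.0 and 0.62 and 0.94 at W3.5. HORVU6Hr1G000710 and HORVU6Hr1G000940, also listed there, had differences of 0.63 and 0.06 at W2.0 and 0.03 and -0.03 at W3.5. HORVU6Hr1G000640, shortly before the run, had 622 and 442 FPKM in WT and 649 and 448 FPKM in the mutant, with differences of 0.06 and 0.02. HORVU6Hr1G000620, the gene listed before it, had differences of 1.15 at W2.0 and -1.19 at W3.5.

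A second stretch of 6H held HORVU6Hr1G008640, HORVU6Hr1G008720 and HORVU6Hr1G008780. Their mutant means were 20.6, 8.10 and 14.2 FPKM at W2.0 and 12.2, 4.39 and 7.07 FPKM at W3.5, against WT means of 5.92, 3.13 and 4.50 FPKM and 3.01, 0.471 and 0.942 FPKM. HORVU6Hr1G008730, listed between the last pair, had differences of 1.29 at W2.0 and 0.83 at W3.5. HORVU6Hr1G008650, HORVU6Hr1G008680 and HORVU6Hr1G008700, listed between the first pair, had differences of 0.17, -0.02 and 0.17 at W2.0 and -0.16, 0.00 and -0.41 at W3.5. The genes listed just outside the stretch, HORVU6Hr1G008590 and HORVU6Hr1G008840, had differences of 0.18 and -0.28 at W2.0 and -0.24 and -0.69 at W3.5.

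On 2H, HORVU2Hr1G077340, HORVU2Hr1G077350 and HORVU2Hr1G077360 followed each other in the table with library values for all 3. Their WT means were 0.2, 0.194 and 0.346 FPKM at W2.0 and 0.488, 0.472 and 0.611 FPKM at W3.5. HORVU2Hr1G077340 stood at 1.69, 1.82 and 0.964 FPKM in mutant W2.0 and 2.74, 2.19 and 1.43 FPKM in mutant W3.5. HORVU2Hr1G077360 stood at 2.31, 3.66 and 1.69 FPKM in mutant W2.0 and 3.82, 3.03 and 2.30 FPKM in mutant W3.5. In all 3 genes the mutant libraries lay above every WT library of the same stage. The genes listed next to the run, HORVU2Hr1G077310 and HORVU2Hr1G077410, had differences of 0.00 and 0.60 at W2.0 and 0.06 and 0.24 at W3.5.

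**Figure D5:**
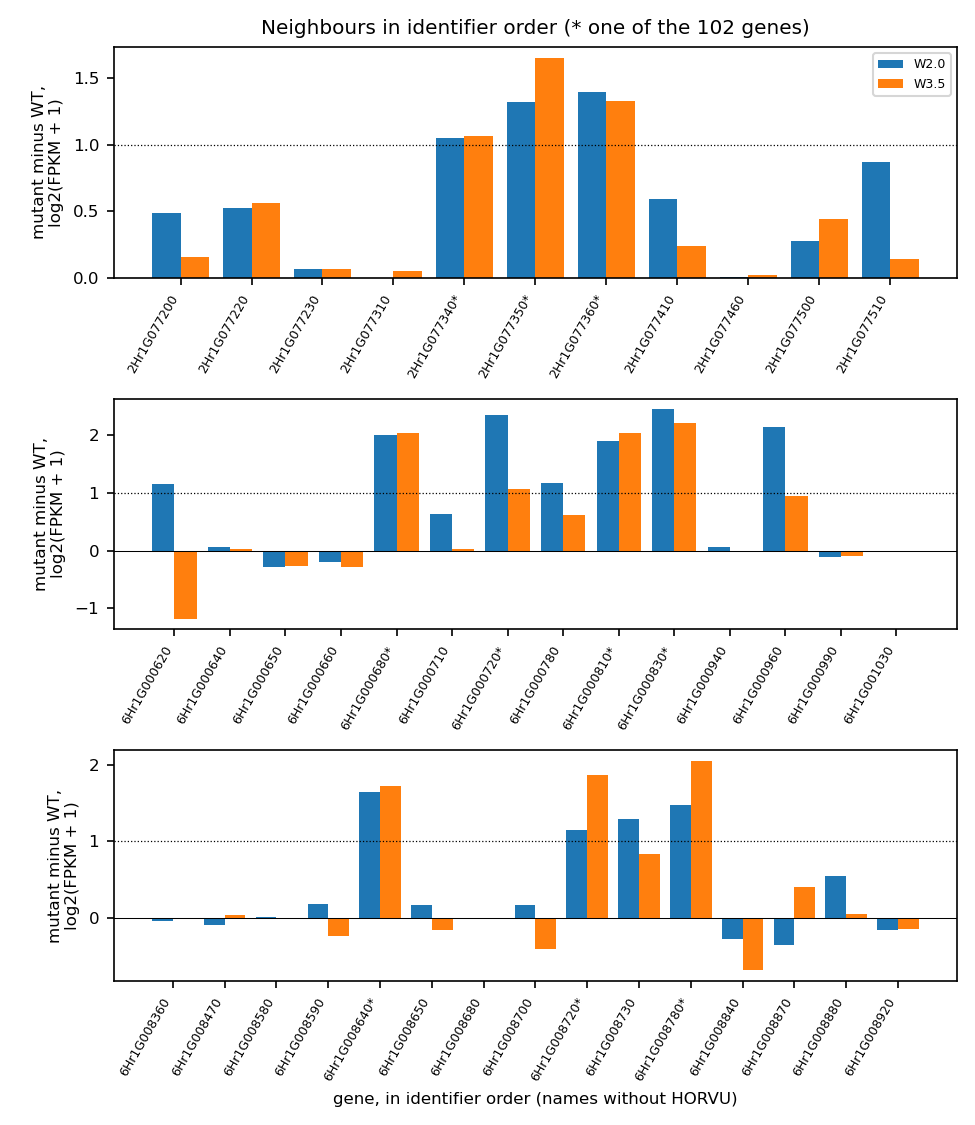
Difference of the authors' group means, mutant minus WT on the log2(FPKM + 1) scale, at W2.0 (blue) and W3.5 (orange) for genes in identifier order around the 3 runs of at least 3 neighbours. Asterisks mark the 102 genes and the dotted line is the limit of 1. In each stretch the marked genes exceed 1 at both stages, while none of the unmarked genes does so at both. On 2H several unmarked genes lie between 0.28 and 0.87 at W2.0.

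The other 6 runs were pairs. HORVU0Hr1G007470 and HORVU0Hr1G007480 had mutant means of 51.5 and 318 FPKM at W2.0 and 17.5 and 63.5 FPKM at W3.5, while their WT means were 4.82 and 41.3 FPKM and 6.26 and 29.7 FPKM. HORVU3Hr1G117400 and HORVU3Hr1G117450 had mutant means of 53.9 and 23.7 FPKM at W2.0 and 17.7 and 9.42 FPKM at W3.5, with 5.40 and 2.80 FPKM and then 7.17 and 3.92 FPKM in WT. The genes of these 2 pairs had mutant stage differences of -2.31 to -1.24 and WT stage differences of -0.46 to 0.37. HORVU7Hr1G116060 and HORVU7Hr1G116080 had mutant means of 76.8 and 81.2 FPKM at W2.0 and 43.0 and 24.3 FPKM at W3.5. HORVU0Hr1G014720 and HORVU0Hr1G014750, HORVU6Hr1G086440 and HORVU6Hr1G086570, and HORVU7Hr1G009160 and HORVU7Hr1G009260 were the remaining pairs. Whether neighbours are copies of each other, and share reads, cannot be read from identifiers.

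Neighbours also included genes off in WT. A gene left out by the limits given at the start, off in WT and on in the mutant, lay within the same distance of 5 of the 102 genes. HORVU2Hr1G108750 had 0.0465 and 0 FPKM in WT and 18.8 and 15.0 FPKM in the mutant, and it is listed beside HORVU2Hr1G108760, whose mutant means were 1.10 and 17.4 FPKM. HORVU4Hr1G050060 had 0.145 and 0.0429 FPKM in WT and 102.5 and 120 FPKM in the mutant, near HORVU4Hr1G050080 with 4.13 and 4.68 FPKM in WT and 10.6 and 14.3 FPKM in the mutant. Of the 41 genes at least 1 lower in the mutant at both stages, 3 lay near one of the 102 genes. For neither count was the same share over all genes computed, so nothing is read from them.

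Library values were also compared between the 26 genes after the group means were taken out, which removes the mean differences of genotype and stage. Differences between libraries of a group remain, among them that of mutant W2.0 library A. Over the 325 pairs the median Pearson r over 12 libraries was 0.08. The most alike were HORVU0Hr1G014720 and HORVU6Hr1G000720, at r = 0.913, and HORVU5Hr1G104800 and HORVU7Hr1G079600, at r = 0.912. In the first pair mutant W2.0 library C and mutant W3.5 library A were the highest of their groups for both genes, and in the second pair mutant W2.0 library A and mutant W3.5 library C were. Over the 11 libraries without mutant W2.0 library A, r was 0.934 and 0.905, and the median over the pairs was 0.10. All 4 genes were among the 7 uneven ones, the points share their libraries, and no p is given because these pairs were picked as the highest of 325.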

How the data were processed

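RNA-seq levels were measured in 12 samples of 4 groups. The deposited table held 4 columns of FPKM, 1 per group, which the authors had averaged over 3 libraries. Headers and labels name no unit, and FPKM is the reading of the deposited values that fits whole reads. The submitters' processing notes list FastQC, HISAT2 2.0.0 and HTSeq 0.11.2. The library kit does not mark strand, per the labels' protocols, so overlapping antisense genes cannot be told apart. For the genome build, the annotation and multiply matching reads, the sources used here give nothing.

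Libraries were recovered from the means. Each group mean equals whole read numbers divided by their libraries' depths, summed, and divided by gene length, and values carried 9 decimals below 1 and 10 significant digits above. Ratios of low values gave 12 depths, which came out whole to within 0.0145 reads. For each of 12471 genes with a highest mean of 0.5 to 16 FPKM, whole reads and a whole length of 100 to 12000 bases were searched, and a solution was accepted at a probability above 0.99. This held for 6520 genes (52.3%). The search was tested on simulated data, where 467 of 467, 302 of 302 and 189 of 189 accepted genes had the right reads at dispersions of 0.02, 0.15 and 0.5. With columns shuffled against each other, 4 of 1000 genes were accepted, against 526 of the same genes unshuffled. The search accepted 78.9%, 53.5% and 36.3% of the genes drawn at these dispersions. No higher dispersion was simulated, so accuracy was not checked for the most uneven genes. The 7 genes with a coefficient of variation over 80% in a mutant group are counted among these. HORVU3Hr1G066190 had coefficients of 130% in mutant W2.0 and 163% in mutant W3.5. In mutant W3.5, HORVU5Hr1G104800 had 163% and HORVU7Hr1G079600 had 155%. Scripts ran under numba 0.67.0 with numpy 2.4.6 and python 3.11.15. Library letters could not be matched to the labels' replicate numbers. Libraries of the same group differed from each other by a chi-square of 10.74 to 29.04 per gene, so none was a duplicate.

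Stage differences were tested with limma 3.58.1 (R 4.3.3) in its trend mode, applied to log2(FPKM + 1), 1 model of 4 group means over all 12 libraries, and 4884 genes at 1 FPKM or more in at least 3 libraries. A tested gene had a median of 166 reads in a library. Fold changes on this scale understate changes of low genes. Genes above 16 FPKM are described by the authors' means without replicate error. The genotype differences chose the genes and were not tested.

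Genes were named by rule: the 10 with the largest smaller genotype difference, the 8 with the highest lower mutant mean, 3 on each side of the limit, the 3 with the largest stage difference in each direction and genotype, and members of runs in identifier order. Genes with library values were named in addition, chosen after their values were seen. The genes and lists were chosen with earlier results of these data known. The planned promoter motifs, product lists and tissue markers were not used here, because no identifier could be paired with a name or a sequence.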

Additional observations from a re-analysis of the deposited data

How the results depend on the processing

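How many genes met the rule depended on its settings. There were 102 as reported, 348 with a pseudocount of 0.1, 168 with a pseudocount of 0.5, 171 with a threshold of 0.8 and 67 with a threshold of 1.2. A smaller pseudocount can only enlarge a positive difference, so all 102 had to remain. Scaling the 4 columns to the same median gave 107 genes, 101 of them shared, and asking for a highest mean of at least 1 FPKM gave 102, which the rule itself forces. Leaving out each library in turn, an alternative chosen after seeing the data, left 19 to 25 of the 26 genes with library values above both limits, lowest without mutant W2.0 library A.

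The stage tests called 0 of the 26 genes in each genotype with limma-trend, with a pseudocount of 0.1, without the filter on low values, with median-of-ratios scaling, with limma-voom and without each library in turn (0 to 0 calls). Over all genes tested these settings called 0 to 9 genes in the mutant and 14 to 88 in WT, and the 13 genes under 1 FPKM in every WT library had little room for a WT call. The counts of 0 therefore say nothing about stability in either genotype. The smallest limma adjusted p of a member ranged over these alternatives from 0.0735 to 0.546 in the mutant and from 0.131 to 0.589 in WT. The edgeR and DESeq2 alternatives were planned only for deposited counts and were not run on the recovered reads. No paired analysis was possible because the recovered libraries carry no replicate numbers. Depth limits the lowest values, since a WT library held a median of 13 reads of a member.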
